A study of Homo sapiens with 6 samples.

Results

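Integrins and focal adhesion genes encode the receptors by which cells hold the extracellular matrix and the proteins that tie those receptors to actin. The group was a list of 44 genes chosen by name, with earlier results of these data known. It held 17 integrin subunits and 27 receptors, adaptors and kinases. Each gene was represented by its transcript cluster, the array's unit of a gene, that carries no other gene symbol and has the highest mean level. Of the 44 genes, 43 had such a cluster, out of 22376 genes named on the arrays. DDR1, a collagen receptor kinase, had no usable cluster of its own and is not analysed here. The 6 clusters that name DDR1 alone held values lacking a decimal point. A usable cluster that also names MIR4640 was not used.

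The samples were 6 Affymetrix arrays of total RNA from untreated subclones of DLD-1, a widely used cell line from a human colorectal adenocarcinoma. Cells had spent 96 h inside a 3D gel of type I collagen at 1 mg/ml. The labels divide the arrays into α-Cat and Δα-Cat, with 3 arrays each, numbered 1 to 3, and α-Cat is taken here to stand for α-catenin. They do not state how many clones a group holds or how the groups were made, and they name no separate cultures, so the spread between arrays may be technical. The comparison asks how the adhesion genes differ between these subpopulations in collagen.

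An integrin is a pair of an α and a β subunit that binds a matrix protein outside the cell. Inside, talin and kindlin bind the β tail and switch the receptor on. The complex of ILK, PINCH (LIMS1, LIMS2) and parvin links it to actin. The kinases FAK (PTK2) and SRC phosphorylate scaffolds such as paxillin and p130Cas. Epithelial cells hold their neighbours through cadherins and α-catenin, and hold matrix through integrins, and both systems end on actin.

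CTNNA1, the gene of αE-catenin, checks the labels. Its log2 level was 7.79, 7.68 and 7.71 in α-Cat arrays 1 to 3 and 6.55, 6.52 and 6.41 in Δα-Cat, a 2.35-fold decrease (limma, adjusted p = 0.00212). Array medians ranged from 4.02 to 4.07. All 9 epithelial markers, among them EPCAM, CDH1 and KRT8, lay above 4.43, the 95th percentile of 364 olfactory receptor genes, used here as the mark of a dim signal. None of the 9 passed, but 4 (44.4%, against 13.1% of genes) had an unadjusted p under 0.05, with changes of 0.26 for CDH1, 0.23 for KRT8, 0.17 for KRT19 and -0.14 for VIL1. Groups were apart in 5 of the 9 (55.6%, against 21.3% of genes), and the part of this in the results below was not tested. Of the fibroblast, leukocyte and endothelial markers, 4 of 7, 4 of 6 and 3 of 6 also lay above it, and none of these 19 passed the test, with an unadjusted p under 0.05 for 1, CD14 (change -0.64), which passed over single-symbol clusters.

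No integrin or focal adhesion gene passed the test over all clusters. PTK2, the focal adhesion kinase, and LIMS1, an adaptor of the ILK complex, were 1.31-fold and 1.36-fold higher in Δα-Cat, and TNS4, a short tensin, was 1.46-fold lower. These 3 passed only when fewer clusters were tested or, for PTK2, with another variance model. TNS4 passed only when clusters with a single gene symbol were tested. A call needed a Benjamini-Hochberg adjusted p under 0.05 in limma over 65526 clusters, and 0 of 43 members met it, where 0.626% of all genes did. At an unadjusted p under 0.05 there were 7 of 43 members, and 13.1% of all genes. When only clusters with a single gene symbol were tested, a refit called 3 members, where it called 2.94% of all genes. These were 2 higher in Δα-Cat (1.64% of genes) and 1 lower (1.30% of genes). The refit adjusts over fewer clusters and also estimates the pooled variance anew, and the change of a member is the same number in both fits.

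Most members moved little, as did most genes. The log2 change, Δα-Cat minus α-Cat, was under 0.10 in size for 27 of the 43 members and for 15474 of all 22376 genes. Its median was 0.0066, against -0.00045 over all genes, with 23 positive and 20 negative. Only 4 members, PTK2, LIMS1, TGFB1I1 and TNS4, differed by over 0.30, or 9.3% of members, against 4.97% of all genes. All 4 were adaptors or kinases. The 17 integrin subunits lay between -0.28 and 0.27. Groups did not overlap in 12 members, 7 higher and 5 lower in Δα-Cat. Over all genes the groups were apart in 21.3%, which divides into 11.3% higher and 10.0% lower.

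**Figure D1:**
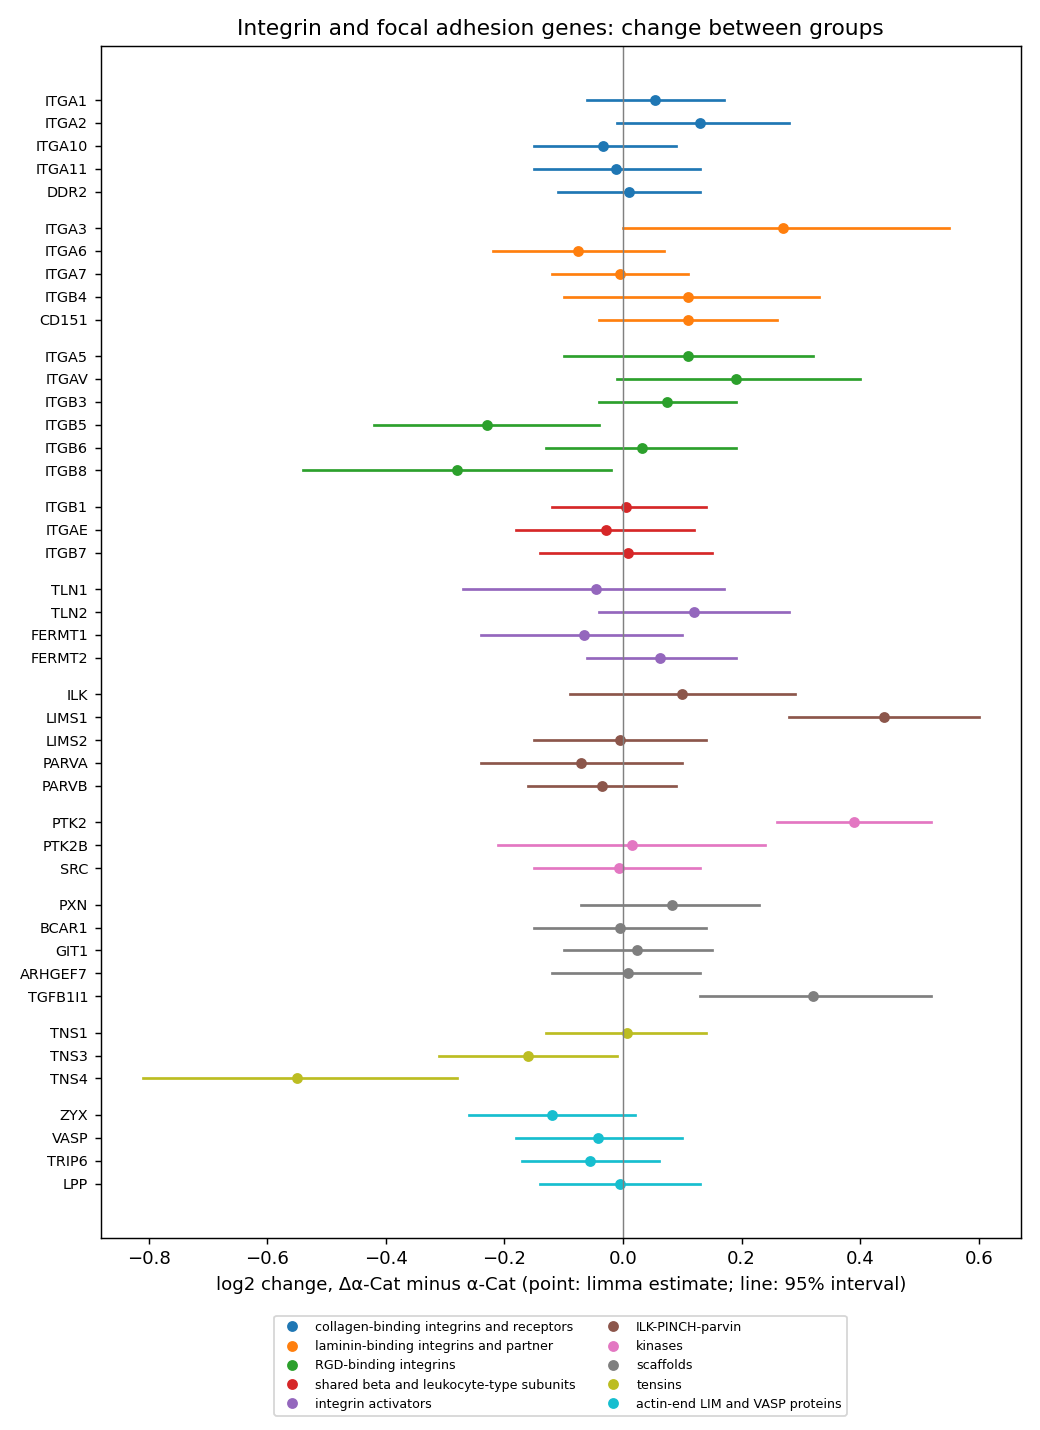
Log2 change of each of the 43 measured genes (x axis, Δα-Cat minus α-Cat) by class, with the limma estimate as a point and its 95% interval as a line, over 3 arrays per group. PTK2, LIMS1 and TGFB1I1 lie furthest to the right and TNS4 furthest to the left, while the integrin subunits stay between -0.28 and 0.27.

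PTK2 encodes focal adhesion kinase, which is recruited to clustered integrins. It read 6.38, 6.27 and 6.34 in the α-Cat arrays and 6.67, 6.72 and 6.77 in the Δα-Cat arrays. Every Δα-Cat array lay above every α-Cat array. The means were 6.33 ± 0.05 and 6.72 ± 0.05 (SD, n = 3 each), a log2 change of 0.39 (SE 0.06, 95% interval 0.26 to 0.52), or 1.31-fold. The limma adjusted p was 0.0577 over all clusters, 0.114 with replicate number as a block, 0.0804 with median centring and 0.06 with cyclic loess. It was 0.0131 over single-symbol clusters. Trended, robust eBayes, which called 0.773% of genes, gave 0.041. Testing only the brighter clusters, which called 302 of the 15908 genes left (1.90%), gave 0.0279.

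The other kinases of the list gave no such separation. SRC, the partner of FAK, had a change of -0.0062 (SE 0.06, 95% interval -0.15 to 0.13). PTK2B, the related kinase PYK2, had a change of 0.015 (95% interval -0.21 to 0.24). Its α-Cat arrays spread from 6.67 to 7.03, so a difference of the size seen for PTK2 was outside its interval but a smaller one was not.

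LIMS1 encodes PINCH1, a LIM-domain adaptor that binds ILK at integrin adhesions. Its level was 7.54, 7.46 and 7.47 in α-Cat and 7.85, 8.04 and 7.90 in Δα-Cat, again without overlap. The log2 change was 0.44 (SE 0.07, 95% interval 0.28 to 0.60), a 1.36-fold higher level. The limma adjusted p was 0.0653 over all clusters, 0.119 with replicate number as a block, 0.106 with median centring and 0.065 with cyclic loess. It was 0.0524 with trended, robust eBayes, 0.0165 over single-symbol clusters and 0.0329 over the brighter clusters. LIMS1 has near-identical copies in the genome, and 1 more usable cluster carries its symbol beside LIMS3, so the signal of the copies could not be kept apart here.

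Other parts of that complex stayed near no difference. LIMS2, the gene of PINCH2, had a change of -0.0058 (95% interval -0.15 to 0.14). ILK, the pseudokinase at the centre, differed by 0.10 (95% interval -0.09 to 0.29, and 0.032 without α-Cat replicate 3), and the parvins PARVA and PARVB by -0.070 and -0.035. Groups overlapped in all of these.

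TNS4 encodes a short tensin, also called Cten, that binds β-integrin tails but lacks the actin-binding part of other tensins. It read 9.32, 9.47 and 9.19 in α-Cat and 8.93, 8.83 and 8.57 in Δα-Cat. The lowest α-Cat array lay above the highest Δα-Cat array. The log2 change was -0.55 (SE 0.11, 95% interval -0.81 to -0.28), 1.46-fold lower in Δα-Cat, the largest difference of the 43 in size. Its limma adjusted p was 0.138 over all clusters, 0.0796 with replicate number as a block, 0.149 with median centring and 0.14 with cyclic loess. It was 0.126 with trended, robust eBayes, 0.046 over single-symbol clusters and 0.0752 over the brighter clusters.

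TNS3, a full-length tensin, differed in the same direction by -0.16 (95% interval -0.31 to -0.01, adjusted p = 0.467 in limma), without overlap between groups. TNS1 had a change of 0.0066 (95% interval -0.13 to 0.14). The differences between the tensins were not tested.

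**Figure D2:**
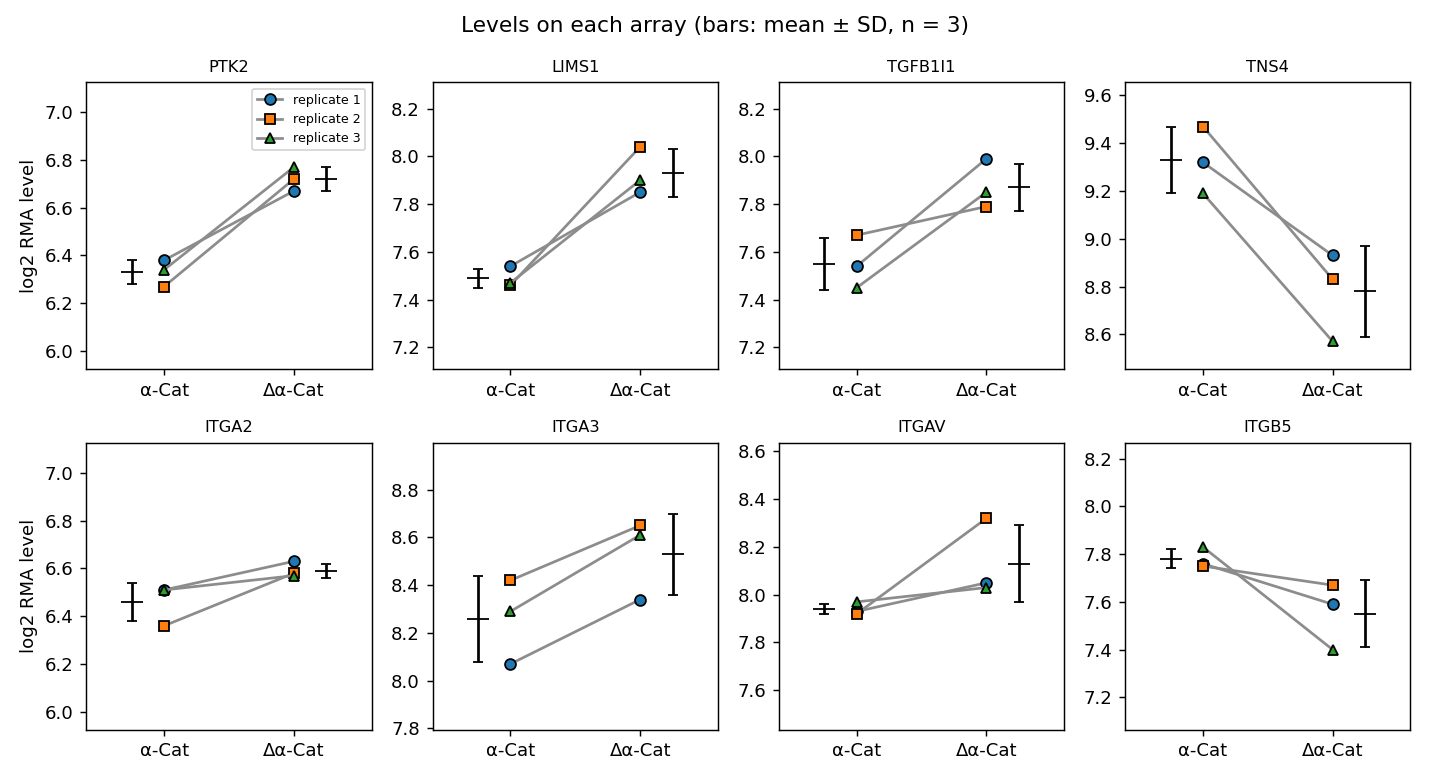
Log2 level on each array (y axis, a span of the same height in every panel) for 8 genes in α-Cat and Δα-Cat, with lines joining arrays of the same replicate number and bars giving mean ± SD, n = 3. PTK2, LIMS1 and TGFB1I1 are higher and TNS4 and ITGB5 lower on every Δα-Cat array, while the groups overlap for ITGA3.

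Among the scaffolds, TGFB1I1 stood furthest out. It encodes Hic-5, a paxillin relative found at focal adhesions. Levels were 7.54, 7.67 and 7.45 in α-Cat and 7.99, 7.79 and 7.85 in Δα-Cat, with no overlap. The change was 0.32 (SE 0.08, 95% interval 0.13 to 0.52), but the limma adjusted p was 0.233 over all clusters. PXN, paxillin itself, read 7.76, 7.89 and 7.89 against 7.86, 7.93 and 7.99, and its groups overlapped. BCAR1 (p130Cas), GIT1 and ARHGEF7 (β-PIX), which couple adhesions to small GTPases, had changes of -0.0047, 0.023 and 0.0093.

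The collagen-binding subunits meet the gel directly. ITGA2, which pairs with ITGB1 as the main collagen receptor of epithelial cells, read 6.51, 6.36 and 6.51 in α-Cat and 6.63, 6.58 and 6.57 in Δα-Cat. The groups did not overlap, but the change was 0.13 (SE 0.06, 95% interval -0.01 to 0.28, limma adjusted p = 0.549). ITGA1, another partner of ITGB1 for collagen, read 2.41, 2.46 and 2.44 against 2.51, 2.48 and 2.47, below the dim mark on every array. A second cluster with ITGA1 in its name also names PELO and was not used. ITGA10 and ITGA11, collagen receptors of cartilage and fibroblasts, differed by -0.034 and -0.011, and DDR2, a receptor kinase for fibrillar collagen, by 0.0094. ITGA10 and DDR2 were dim in both groups.

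The upstream sequences below are given as context for ITGA2, the collagen receptor, and for LIMS1 and TGFB1I1, which were both higher in Δα-Cat without passing the test over all clusters. Each is the 250 bases before the first transcription start of the gene in RefSeq (GRCh38.p14), 5′ to 3′ on the gene's strand. Capitals mark GGGCGG or its reverse complement CCGCCC, the SP1 motif.
ITGA2 (chr5:52989102-52989351, + strand): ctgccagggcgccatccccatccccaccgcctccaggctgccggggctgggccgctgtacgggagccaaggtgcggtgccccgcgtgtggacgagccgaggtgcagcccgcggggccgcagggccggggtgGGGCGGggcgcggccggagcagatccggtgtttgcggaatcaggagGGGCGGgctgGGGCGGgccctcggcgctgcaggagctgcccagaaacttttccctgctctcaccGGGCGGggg
LIMS1 (chr2:108534220-108534469, + strand): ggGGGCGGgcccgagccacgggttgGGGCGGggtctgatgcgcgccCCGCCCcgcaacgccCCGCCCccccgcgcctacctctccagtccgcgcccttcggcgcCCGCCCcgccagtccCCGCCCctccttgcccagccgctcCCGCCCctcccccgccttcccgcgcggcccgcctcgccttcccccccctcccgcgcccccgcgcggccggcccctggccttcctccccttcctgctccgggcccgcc
TGFB1I1 (chr16:31471902-31472151, + strand): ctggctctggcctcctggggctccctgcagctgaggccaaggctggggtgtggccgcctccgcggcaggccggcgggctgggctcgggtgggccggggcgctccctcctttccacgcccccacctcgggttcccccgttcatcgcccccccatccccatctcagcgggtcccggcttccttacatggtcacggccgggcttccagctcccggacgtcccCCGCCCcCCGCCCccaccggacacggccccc
The motif occurred 4 times for ITGA2, 7 times for LIMS1 and 2 times for TGFB1I1. At least 1 match occurred in 42.6% of all 35116 windows of 250 bases, which were not matched for G and C content. The bases G and C made up 76.4%, 84.0% and 76.4% of the ITGA2, LIMS1 and TGFB1I1 windows. The AP-1 motif TGANTCA, the TEAD motif GGAATG and the CArG box of SRF were searched on both strands, with 0 matches in the 3 windows and a match in 6.57%, 11.9% and 1.16% of all windows. LIMS1 has 4 listed starts, TGFB1I1 has 3 and ITGA2 has 1, and a cluster does not tell the starts of a gene apart. Of the 44 genes, 33 had an entry in that table.

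The laminin-binding subunits anchor epithelia to the basement membrane, and none passed. ITGA3, a laminin receptor subunit of epithelia, read 8.07, 8.42 and 8.29 in α-Cat and 8.34, 8.65 and 8.61 in Δα-Cat. The groups overlapped, and the change was 0.27 (SE 0.12, limma adjusted p = 0.518), and 0.17 without α-Cat replicate 1. Within replicate numbers the differences were 0.27, 0.23 and 0.31, close to each other. With replicate number as a block the SE was 0.06 and the limma adjusted p 0.19, which was no call either. CD151, a tetraspanin that holds laminin-binding integrins at the membrane, read 10.37, 10.51 and 10.38 against 10.48, 10.60 and 10.50. ITGB4, the β subunit of hemidesmosomes, had a change of 0.11 (95% interval -0.10 to 0.33), and 0.039 without α-Cat replicate 1 and 0.053 without Δα-Cat replicate 2. Its partner ITGA6 differed by -0.075 (95% interval -0.22 to 0.07), and ITGA7, a laminin receptor of muscle, by -0.0051.

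The RGD-binding subunits, which recognise a short motif in fibronectin and vitronectin, went both ways without passing. ITGB5, a partner of ITGAV for vitronectin, read 7.76, 7.75 and 7.83 in α-Cat and 7.59, 7.67 and 7.40 in Δα-Cat, without overlap. Its change was -0.23 (SE 0.08, 95% interval -0.42 to -0.04, limma adjusted p = 0.398), and -0.15 without Δα-Cat replicate 3. ITGB8, a partner of ITGAV that binds latent TGF-β, read 5.03, 5.03 and 5.32 against 5.03, 4.76 and 4.77. Its change of -0.28 (SE 0.11, adjusted p = 0.479 in limma) rested in part on α-Cat replicate 3, without which it was -0.18.

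ITGAV itself was higher on every Δα-Cat array, at 8.05, 8.32 and 8.03 against 7.93, 7.92 and 7.97. Its change was 0.19 (SE 0.09, 95% interval -0.01 to 0.40), and 0.098 without Δα-Cat replicate 2, the array with the highest level. ITGA5, the fibronectin receptor subunit, differed by 0.11 (0.063 to 0.20 with 1 array left out), ITGB3 by 0.075 and ITGB6, an epithelial partner of ITGAV, by 0.032. The groups of ITGB3 did not overlap, but its α-Cat mean of 4.43 lay at the dim mark.

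ITGB1, the β subunit shared by most of these receptors, was nearly the same in both groups. It read 8.27, 8.26 and 8.28 in α-Cat and 8.28, 8.34 and 8.21 in Δα-Cat. The change was 0.0056 (SE 0.06, 95% interval -0.12 to 0.14). The 2 dimmer ITGB1 clusters gave 0.015 and 0.10, with 95% intervals of -0.13 to 0.16 and -0.17 to 0.37. ITGAE and ITGB7, which pair on lymphocytes within epithelia, differed by -0.028 and 0.0082. ITGAE read 5.02, 5.05 and 4.96 against 5.08, 4.93 and 4.94, and ITGB7 5.07, 5.13 and 5.17 against 5.21, 5.06 and 5.13.

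Of the integrin activators, none had groups apart. TLN2, a talin, read 5.52, 5.58 and 5.65 in α-Cat and 5.60, 5.78 and 5.73 in Δα-Cat, a change of 0.12 (95% interval -0.04 to 0.28). TLN1, the main talin, differed by -0.045 and FERMT1, the kindlin of epithelia, by -0.066. FERMT2, a kindlin found at focal adhesions of many cell types, read 2.48, 2.56 and 2.53 against 2.61, 2.55 and 2.59, which is dim in both groups.

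The 4 genes of proteins at the actin end of adhesions all had negative changes, as did 11234 of all 22376 genes. ZYX (zyxin), a LIM protein that moves to adhesions under tension, read 7.58, 7.65 and 7.61 in α-Cat and 7.53, 7.41 and 7.53 in Δα-Cat. The groups were apart, with a change of -0.12 (95% interval -0.26 to 0.02). TRIP6, a zyxin relative, read 7.36, 7.37 and 7.33 against 7.31, 7.28 and 7.31, a change of -0.056. VASP, which promotes actin growth, differed by -0.042 and LPP, another zyxin relative, by -0.0048, and groups overlapped in both. Without 1 array the change of LPP ranged from -0.031 to 0.026. None of the 4 had an unadjusted p under 0.05.

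**Figure D3:**
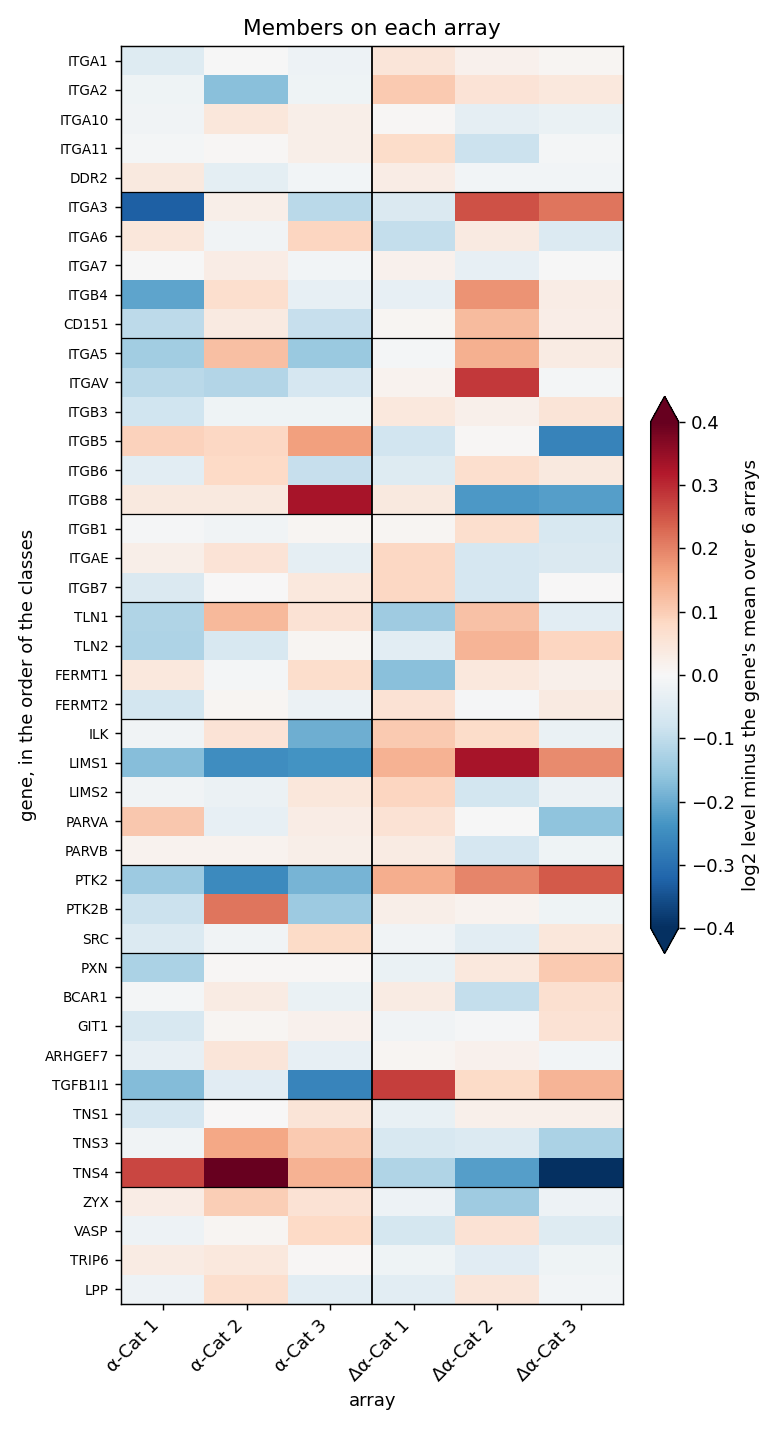
Log2 level of each measured gene (rows, in the order of the classes) on each of the 6 arrays (columns), minus the gene's mean over the arrays. LIMS1, PTK2 and TGFB1I1 are higher and TNS4 lower across the 3 Δα-Cat arrays, and ITGA3 and ITGB4 are lowest on replicate 1 of each group.

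Over all clusters, same-numbered arrays of the 2 groups correlated at 0.219, 0.214 and 0.128 after subtracting group means. The same-numbered array was the lowest of both groups for 15 of 43 members, and for 38.0% of all genes, so the members did not stand out. Replicate 1 was the lowest array of both groups for 9 of 43 members, including ITGA3, ITGB4, CD151, TLN1, TLN2 and PXN, and for 12.3% of all genes. The 3 differences within replicate numbers were all positive for 14 members, where 20.3% of genes showed this, and all negative for 7, where 18.7% did. The 14 held 7 integrin subunits, and LIMS1, PTK2 and TGFB1I1. Among the 7 were ITGB5, ITGB8, TNS3 and TNS4.

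Beyond the 44 genes, 6 further lists of adhesion genes held 134 measured genes, of which 2 rose and 0 fell in Δα-Cat over all clusters, where 0.626% of all genes were called. Over single-symbol clusters 4 were higher (PPFIBP1, LAMA2, ACTN1, ARHGEF12) and 3 lower (FN1, LTBP1, TSPAN8), where 2.94% of genes were called. FN1 had means of 4.13 in α-Cat and 3.77 in Δα-Cat, below the dim mark in both groups. Of 37 other focal adhesion proteins, PPFIBP1 (liprin-β1), a protein of the cortical complexes around adhesions, rose and 36 did not pass. It read 7.91, 7.89 and 7.80 in α-Cat and 8.33, 8.39 and 8.37 in Δα-Cat, a change of 0.50 (SE 0.06, limma adjusted p = 0.0284, and 0.0705 with replicate number as a block). Of 24 integrin ligands in the matrix, LAMA2, the laminin α2 chain, rose and 23 did not pass. Its levels of 3.83, 3.76 and 3.81 against 4.28, 4.20 and 4.23 were below the dim mark in both groups (change 0.44, SE 0.05, limma adjusted p = 0.0379, and 0.0762 with the block). Leaving out any single array ended both calls, with adjusted p from 0.0681 to 0.146 for PPFIBP1 and from 0.0941 to 0.169 for LAMA2. In limma over all clusters, 8 of the 24 ligands (33.3%) had an unadjusted p under 0.05, against 13.1% of all genes. For the 37 other focal adhesion proteins the count was 5 (13.5%). The 6 lists were chosen with earlier results of these data known, so their shares, here and below, are descriptive and no independent test.

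None of 37 adhesion signalling genes passed, and the smallest p belonged to ARHGEF12, an exchange factor for RhoA (change 0.44, SE 0.09, adjusted p = 0.132), and DOCK1, an exchange factor for RAC1 (change 0.32, SE 0.08, adjusted p = 0.205). The median of that list was 0.035, and 7 (18.9%) had an unadjusted p under 0.05, against 13.1% of all genes. Of 20 integrin regulators and tetraspanins none passed, and TSPAN8, a tetraspanin, had a change of -0.43 (adjusted p = 0.137) and CIB1, a calcium-binding partner of integrin tails, of -0.24 (adjusted p = 0.231); 5 of the 20 (25%) had an unadjusted p under 0.05. None of 6 hemidesmosome partners passed, with changes of 0.23 for KRT8, a keratin, and -0.24 for DST, which anchors keratin to hemidesmosomes, the 2 (33.3%) with an unadjusted p under 0.05. The 10 other genes with integrin names, mostly of leukocytes, each differed by under 0.10, and 0 had an unadjusted p under 0.05. The change was 0.034 for ITGA8 and -0.029 for ITGB2, and 3 of the 10, with ITGA8 among them, were dim in both groups. TNC, tenascin-C, a matrix ligand of integrins named after its values were seen, had the largest change of these lists at 1.0 (SE 0.35, adjusted p = 0.399). Its arrays read 6.01, 6.85 and 7.01 in α-Cat and 7.21, 8.29 and 7.39 in Δα-Cat.

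**Figure D4:**
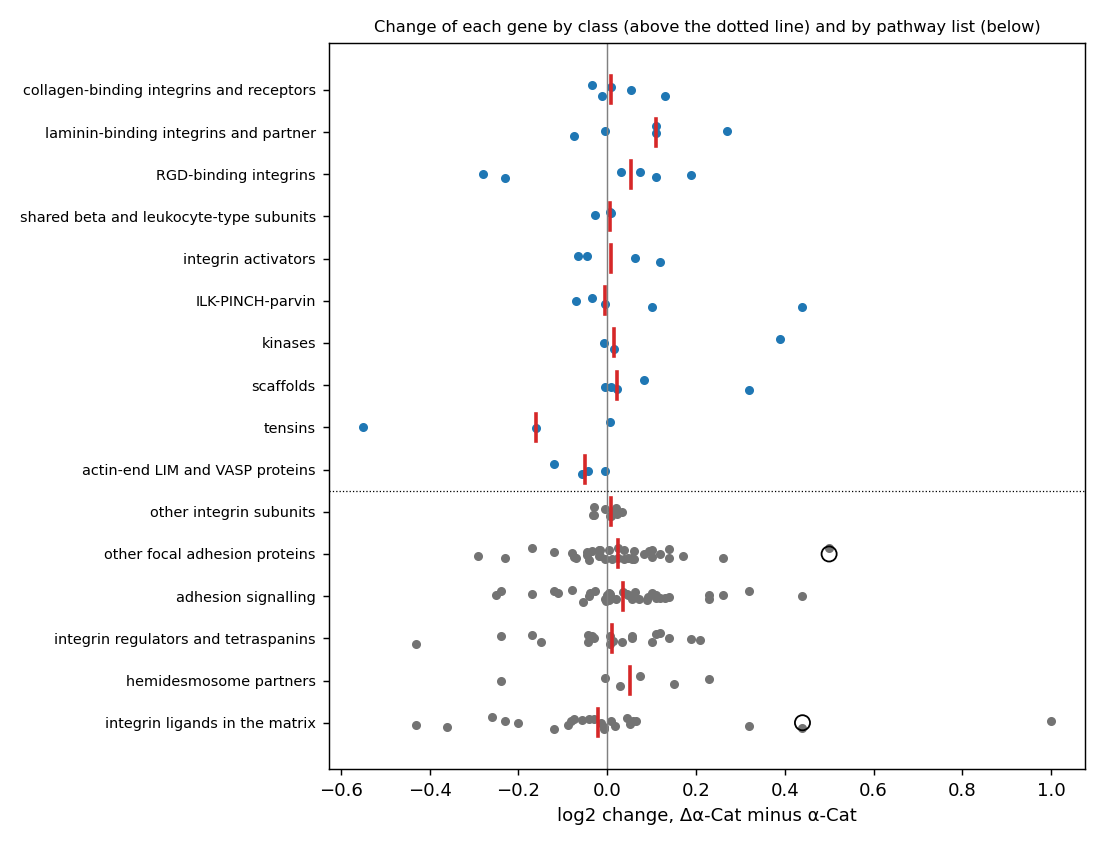
Log2 change of each gene (x axis, Δα-Cat minus α-Cat) in the 10 classes of the 44 genes, above the dotted line, and in 6 further adhesion lists, below it. Red bars are medians and open circles mark the genes with an adjusted p under 0.05 over all clusters, PPFIBP1 and LAMA2.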

How the data were processed

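Per the submitters' processing notes, the authors used Affymetrix Expression Console and RMA, which corrects background, normalizes by quantiles and sums up the probes of a cluster; its version is not given in the sources used here. Each deposited score of a cluster was taken as log2, since usable values ran from 1.26 to 14.24. Of 70513 rows, 4987 with a value lacking its decimal point were left out. A second table, with 6 per-sample columns whose names match no label, was not used.

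Names came from the platform annotation. The differences, fitted with limma 3.58.1 in R 4.3.3 (lmFit, eBayes, no covariate), were adjusted by Benjamini-Hochberg over 65526 clusters, and the fit was tested on simulated data. Tables and plots used Python 3.11.15, pandas 2.3.3 and matplotlib 3.10.9. The number of arrays limits the precision. All 6 values are printed for members with an adjusted p under 0.1, or called under an alternative, and otherwise for the 2 members of a class with the smallest p; those of ITGAV and ITGB1, and the names ACTN1, FN1, LTBP1 and CD14, were added after their values were seen. Members and lists were chosen with earlier results of these data known. Of each other list, the called genes, or the 2 with the smallest p, are named.

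After subtracting group means, same-numbered arrays of the 2 groups correlated at 0.219, 0.214 and 0.128 over clusters, so the replicate numbers were treated as pairing the arrays in an alternative fit with a block. The other alternatives were cyclic loess, median centring, trended and robust eBayes, single-symbol clusters only, clusters above the median level only, and leaving out each array.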

Additional observations from a re-analysis of the deposited data

How the results depend on the processing

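The number of members called was 0 over all clusters, with the replicate block, cyclic loess and median centring, and without any single array. It was 1 with trended, robust eBayes (PTK2), 2 with the brighter clusters only (PTK2 and LIMS1, of 40 tested) and 3 with single-symbol clusters only (PTK2, LIMS1 and TNS4); the last 2 settings adjust over fewer clusters and estimate the pooled variance anew. Over all clusters the count went from 224 to 662 with single-symbol clusters only and to 458 with the brighter ones, and lay between 29 and 120 without 1 array. Of the other adhesion lists 2 genes were called, 0 with the replicate block, 7 with single-symbol clusters only (4 higher, 3 lower), 1 with the brighter clusters only, where the dim LAMA2 was not tested, and 0 with each array left out in turn. The block changed no other call given here. The median change of the members was 0.0066, and lay between -0.0093 and 0.015 without 1 array.

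Of 43 members, 27 kept their sign in every alternative, among them PTK2, LIMS1, TGFB1I1, TNS4, ITGA2, ITGA3, ITGAV and ITGB5. The other 16 had changes of at most 0.066 in size, and without 1 array they ranged as follows: ITGA11 -0.051 to 0.03, DDR2 -0.0094 to 0.03, ITGA7 -0.017 to 0.0086, ITGB6 -0.0051 to 0.081, ITGB1 -0.025 to 0.037, ITGB7 -0.029 to 0.046, TLN1 -0.12 to 0.016, FERMT1 -0.1 to 0.00064, LIMS2 -0.05 to 0.031, PTK2B -0.054 to 0.12, SRC -0.035 to 0.031, BCAR1 -0.036 to 0.044, GIT1 -0.00039 to 0.038, ARHGEF7 -0.0063 to 0.038, TNS1 -0.024 to 0.036, LPP -0.031 to 0.026. With cyclic loess ITGA7 had a change of 0.00017. The cause was not tested. Without 1 array the adjusted p ranged from 0.106 to 0.223 for PTK2, from 0.0989 to 0.25 for LIMS1 and from 0.155 to 0.38 for TNS4. Members below the dim mark in both groups (ITGA1, ITGA10, DDR2, FERMT2) have a level not shown to exceed background, so a difference there could be missed. A level above the mark does not by itself show expression. Of the fibroblast, leukocyte and endothelial markers, 4 of 7, 4 of 6 and 3 of 6 lay above it, with fibroblast marker means up to 6.15. ITGAE, ITGB7, ITGA7, ITGA11 and ITGB6 were among the members with lower means than that, so the same limit holds for them.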
